A study of Mus musculus with 14 samples.

Results

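Vascular endothelial cells line the blood vessels of the testis, and 10 genes commonly used as their markers were followed across Glis3KO2 and WT testes at 2 ages: Robo4, Pecam1, Cdh5, Emcn, Kdr, Flt1, Tek, Tie1, Esam and Edn1. All non-control probes whose name on the array was one of these genes were taken. That gave 17 probes (44 spots) of 41174 probes, for 9 of the 10 genes, among 27962 gene names on the array. Esam has no probe under that name. The array's Esam1 probe carries the accession that RefSeq assigns to Esam, so it is given beside the others and is not counted among the 9. RNA came from whole testes of C57BL/6 mice and was hybridised to single-colour Agilent mouse arrays: 4 Glis3KO2 and 4 WT samples at 1 week of age, and 3 Glis3KO2 and 3 WT samples at 4 weeks. The series text calls the older mice 3 weeks old; the age on each sample's label was followed. No animal was treated. Glis3 encodes a zinc finger transcription factor; the labels do not describe the Glis3KO2 allele, the cells it acts in, or whether each sample is a separate animal, so p-values measure the spread between these samples.

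As background, the members act at successive levels of the same vessel. Pecam1, Cdh5 (VE-cadherin) and Esam are adhesion molecules of endothelial junctions, and Emcn (endomucin) is a sialomucin of capillary and venous endothelium. Kdr is the main signalling receptor for VEGF-A, Flt1 binds the same ligand tightly and limits how much reaches Kdr, Tek (TIE2) is the angiopoietin receptor, and Tie1 is its partner without a known ligand of its own. Robo4 is the endothelial member of the Roundabout receptor family and stabilises vessels, and Edn1 encodes the precursor of the vasoconstrictor endothelin-1, which epithelia make as well.

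The promoters of the members that behaved most differently are shown first: Robo4 and Edn1, whose 4-week differences were the largest among the members, Emcn, which was called at both ages, and Flt1, which was not called at 4 weeks. RefSeq promoter entries (GRCm38.p6) matched 7 of the 10 genes. Each line gives the 250 bases before the annotated start, 5′ to 3′ on the gene's own strand, at chr9:37401722-37401971 (plus strand) for Robo4, chr13:42301226-42301475 (plus) for Edn1, chr3:137340828-137341077 (plus) for Emcn and chr5:147726012-147726261 (minus) for Flt1. Capitals mark matches to the motifs named in the next paragraph.
Robo4: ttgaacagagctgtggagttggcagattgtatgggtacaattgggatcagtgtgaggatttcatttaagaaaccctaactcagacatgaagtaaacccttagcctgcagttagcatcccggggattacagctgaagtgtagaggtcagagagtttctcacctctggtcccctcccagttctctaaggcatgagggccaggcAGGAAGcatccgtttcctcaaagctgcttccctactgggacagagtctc
Edn1: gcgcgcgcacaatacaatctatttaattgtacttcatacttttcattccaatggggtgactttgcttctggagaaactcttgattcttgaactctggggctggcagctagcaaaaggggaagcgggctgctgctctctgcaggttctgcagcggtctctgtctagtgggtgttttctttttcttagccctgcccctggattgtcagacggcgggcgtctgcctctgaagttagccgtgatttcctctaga
Emcn: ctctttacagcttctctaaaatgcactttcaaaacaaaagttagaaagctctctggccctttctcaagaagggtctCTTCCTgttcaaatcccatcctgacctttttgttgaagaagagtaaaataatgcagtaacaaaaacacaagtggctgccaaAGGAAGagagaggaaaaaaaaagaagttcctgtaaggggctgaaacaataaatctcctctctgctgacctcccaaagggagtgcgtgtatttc
Flt1: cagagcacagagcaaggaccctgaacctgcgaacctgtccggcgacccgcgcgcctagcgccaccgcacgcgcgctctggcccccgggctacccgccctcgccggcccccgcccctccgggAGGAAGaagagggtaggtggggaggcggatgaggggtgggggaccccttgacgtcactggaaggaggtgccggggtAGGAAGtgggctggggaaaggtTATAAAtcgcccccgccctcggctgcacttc

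These windows were searched on both strands for the ETS-type words AGGAAG and CCGGAA, the GATA-type word AGATAA, the GLIS core TGGGGGGT and the TATA box TATAAA; no 2 matches overlapped in the windows printed. AGGAAG was found in 4 of the 7 member promoters, against 29.5% of 32851 promoters of the same length. Robo4 held it once, beginning 49 bases before the start, Emcn held it at 174 and 93 bases before, Flt1 at 129 and 53, and Tie1 at 219. CCGGAA was present in Kdr alone among the 7 (12% of all promoters), and TATAAA in Flt1 alone (12.4%), beginning 31 bases before its start. AGATAA (9.99% of all promoters) and the GLIS core (1.36%) were in 0 of the 7, and the Edn1 and Tek windows held none of the 5 words.

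Signals are log2 values relative to each array's own 75th percentile, so a value belongs to its probe and is compared across samples, not between genes. On the 14 arrays, 74.3% to 86.6% of spots lay well above background. At 1 week WT replicates 1, 2 and 3 had 86.6%, 82.6% and 86.3%. WT replicate 4 had 76.7%, within the range of 74.3% to 78.5% of the 1-week Glis3KO2 arrays. The part of this array difference in the 1-week results was not tested. The arrays sat on 5 slides: slides 1 and 2 held both genotypes at 1 week, slide 3 held 1-week Glis3KO2 replicate 4 alone with its own scan day, and slides 4 and 5 held both genotypes at 4 weeks. The targeted gene followed the labels at 1 week: Glis3 was well above background on 0 of 4 Glis3KO2 arrays and 4 of 4 WT arrays, with means of -8.04 and -4.87, and was at least 4.25-fold lower (limma adjusted p = 0.00534). Under normexp background correction the Glis3 call was lost (log2 difference -0.46, adjusted p = 0.206). In the older mice Glis3 signal stayed at background on all 6 arrays, so it checks nothing there. Whether the Glis3 probe sits inside or outside what was deleted is not given in the sources used here.

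Each gene is led by its probe with the highest mean signal. All 9 lead probes, and the Esam probe, were well above background on all 14 arrays, so the endothelial markers were measured in every sample. Kdr, Pecam1, Cdh5 and Tek have 2 probes each and Flt1 has 5; 2 probes, 1 of Flt1 and 1 of Kdr, were above background on 0 arrays. After the filter on dim probes 14 of the 17 entered the 1-week test and 13 the 4-week test. Among the lead probes, the Pecam1 probe spans 1854 bases of chromosome 11 on the mm7 build (chr11:106790116-106791969, minus strand) for its 60 bases, and the Tie1 probe lies at chr4:117847966-117848025 (minus strand). Both read without a stop codon in at least 1 frame, and both are shown because each alone carries its gene's result.
Pecam1 probe: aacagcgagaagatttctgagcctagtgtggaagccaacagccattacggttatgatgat
Tie1 probe: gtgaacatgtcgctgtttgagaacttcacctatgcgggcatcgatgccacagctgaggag

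Probes were scored for likeness to the telomeric repeat. A run of 7 matching bases is enough to score 7, and the share that unrelated sequence would reach was not worked out. The best ungapped match to repeated CCCTAA, with 1 for a match and -1 for a mismatch, reaches 7 in 3.82% of all probes, and of the member probes only in a dim Flt1 probe. Searched on either strand, 7.19% of all probes reach 7, among them the lead Pecam1 probe and the Esam probe, each at exactly 7. The part of such short matches in the values of these probes was not tested. The Robo4 and Edn1 probes scored 5 and 6.

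At 1 week the endothelial genes differed little between Glis3KO2 and WT. Emcn was the one member called (limma adjusted p under 0.05 over all probes tested), 1 of 9 higher and 0 lower; over all 33710 probes tested 3.24% were called higher and 6.75% lower. At an unadjusted p under 0.05 the counts were 1 higher and 1 lower. The median log2 difference of the 9 genes was 0.15, beside -0.12 for all probes. Scaling moved both: with median scaling in place of the 75th percentile the medians were 0.41 and 0.14, and the share of calls that were higher was 70.8% instead of 32.4% over all probes (51% with quantile normalization, 44.7% with normexp). Within slides the median of the 9 was 0.06 on slide 1 and 0.07 on slide 2, and with slide as a block 0.10.

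Emcn had log2 signals of 0.26, -0.08, 0.29 and 0.43 in 1-week Glis3KO2 testes, against -0.52, -0.40, -0.45 and -0.28 in 1-week WT testes. All 4 Glis3KO2 arrays lay above all 4 WT arrays, as they did for 13.3% of all probes. Glis3KO2 minus WT was 0.64 on the log2 scale (SE 0.14, limma adjusted p = 0.0339), a 1.56-fold higher signal. The call was lost without any one of WT replicates 1, 2 and 3 or Glis3KO2 replicates 1 and 4, with differences from 0.57 to 0.64 and adjusted p from 0.0628 to 0.0979. It was also lost with slide as a block (0.56, adjusted p = 0.127), on slide 1 alone (0.76, adjusted p = 0.195) and on slide 2 alone (0.27, adjusted p = 0.9996).

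Flt1, the VEGF-A binding receptor, had signals of 0.18, 0.05, -0.28 and 0.09 in 1-week Glis3KO2 testes, against 1.24, 0.83, 0.94 and 0.07 in 1-week WT testes. WT replicate 4 lay among the Glis3KO2 arrays and the other 3 WT arrays above all of them. The difference was -0.76 (SE 0.25, limma adjusted p = 0.0737) and missed the threshold. Without WT replicate 4 it was -0.99 (limma adjusted p = 0.0148). That array's share of spots above background, 76.7%, lay among those of the Glis3KO2 arrays. Without it, genotype at 1 week coincides with that array difference, and calls over all probes went from 3367 to 5256. The next Flt1 probe, which lies 0.073 kb from the lead probe on mm7, gave -0.90 (limma adjusted p = 0.0561). A probe 76.0 kb away, of another transcript record, gave -0.57 (limma adjusted p = 0.0693). A dimmer probe 92.2 kb away, above background on 2 Glis3KO2 and 3 WT arrays of 1 week, gave -0.27 (limma adjusted p = 0.657). Within slides the lead probe differed by -1.14 on slide 1 and -0.40 on slide 2.

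The other receptors were closer between genotypes at 1 week. Kdr averaged 0.60 ± 0.45 in Glis3KO2 and 0.73 ± 0.29 in WT (SD, n = 4 each), a log2 difference of -0.13 with a 95% interval from -0.69 to 0.43. Tek differed by -0.32 (interval -0.73 to 0.09). A Tek probe 132 kb from the lead one differed by -0.69 (adjusted p = 0.0646), so neither was called. For Tie1 the difference was 0.16 (interval -0.18 to 0.51). The junction genes Cdh5 and Pecam1 differed by 0.21 and 0.15, Robo4 by 0.29 and Edn1 by -0.12, none of them called, and Esam by 0.33 (adjusted p = 0.0798). A second Cdh5 probe had the other sign (-0.08, limma adjusted p = 0.838). Edn1 and Kdr changed sign with median scaling (0.14 and 0.13).

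At 4 weeks 5 of the 9 genes were higher in Glis3KO2 testes, Robo4, Edn1, Pecam1, Cdh5 and Emcn, and 0 were lower. Most of the array differed at that age: of 31382 probes tested 69.4% were called, 35.6% higher and 33.8% lower. The median of the 9 was 1.12, beside 0.05 over all probes, and 0.65 over the 7 genes other than Robo4 and Edn1. No member passed an unadjusted p under 0.05 in the lower direction. With slide as a block the median was 1.12, on slide 4 alone 1.15 and on slide 5, which has 1 array of each genotype and so no test, 1.04. RNA of a whole organ cannot tell fewer cells of a type and less RNA per cell apart.

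Robo4, the vessel-stabilising receptor, had signals of 4.36, 4.93 and 4.34 in 4-week Glis3KO2 testes, against -0.20, -0.50 and -0.25 in 4-week WT testes. The lowest Glis3KO2 array lay far above the highest WT array, and also above every 1-week array, which reached 2.27 in Glis3KO2 and 1.84 in WT. Glis3KO2 exceeded WT by 4.86 on the log2 scale (SE 0.21, limma adjusted p = 0.00042), a 29.0-fold higher signal; it was 4.87 on slide 4 and 4.84 on slide 5.

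Edn1, the endothelin-1 precursor, had signals of 0.83, 0.33 and -0.07 in 4-week Glis3KO2 testes, against -4.28, -4.83 and -4.72 in 4-week WT testes. The groups were again far apart, and the Glis3KO2 arrays lay near the 1-week range of -0.47 to -0.11 in Glis3KO2 and -0.35 to 0.04 in WT. The gap was 4.97 on the log2 scale (SE 0.27, limma adjusted p = 0.00042), or 31.4-fold, with 5.08 on slide 4 and 4.76 on slide 5. Robo4 and Edn1 each have 1 probe, so neither has a second probe as a check. Both lie on the plus strand on mm7, at chr9:37342570-37342629 and chr13:41748495-41748554.

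The junction genes differed by less between the genotypes at 4 weeks. Pecam1 had signals of -4.06, -4.11 and -4.40 in 4-week Glis3KO2 testes and -5.52, -6.01 and -5.75 in 4-week WT testes, with no overlap and a log2 difference of 1.57 (SE 0.19, limma adjusted p = 0.000745). Cdh5 had -0.87, -1.13 and -1.63 in Glis3KO2 and -2.26, -2.73 and -2.53 in WT, also without overlap, and differed by 1.30 (SE 0.24, adjusted p = 0.0027). The second Cdh5 probe, 0.66 kb from the lead one, gave 1.17 (limma adjusted p = 0.00177). Emcn had -0.23, -0.58 and -0.67 in Glis3KO2 and -1.44, -1.71 and -1.67 in WT, a difference of 1.12 (SE 0.18, adjusted p = 0.00161). Esam, read through its accession, was called too, at 1.09 (SE 0.19, adjusted p = 0.00242). All 5 called members had every Glis3KO2 array above every WT array, as did 39.1% of all probes. Normexp gave the smallest Pecam1 difference, 0.90, still called.

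The 4 tyrosine kinase receptors of the VEGF and angiopoietin systems did not pass at 4 weeks. Tie1 had -3.50, -3.89 and -4.28 in Glis3KO2 and -4.12, -4.94 and -4.54 in WT, and the groups overlapped (log2 difference 0.65, interval -0.02 to 1.31, limma adjusted p = 0.0778). It was called with slide as a block (adjusted p = 0.0203), without WT replicate 1 (0.85, adjusted p = 0.0464) and without Glis3KO2 replicate 3 (0.84, adjusted p = 0.0328). Kdr differed by 0.47 (interval -0.09 to 1.04) and was called with slide as a block (adjusted p = 0.0339). Flt1 differed by 0.13 (interval -0.22 to 0.49), and its 2 other tested probes gave 0.07 and 0.26. Tek had a difference of 0.03 (interval -0.42 to 0.49), with 0.33 on its second probe, neither called; the sign of the first turned on slide 4 alone (-0.11) and with median scaling (-0.05) or quantile normalization (-0.06).

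**Figure D1:**
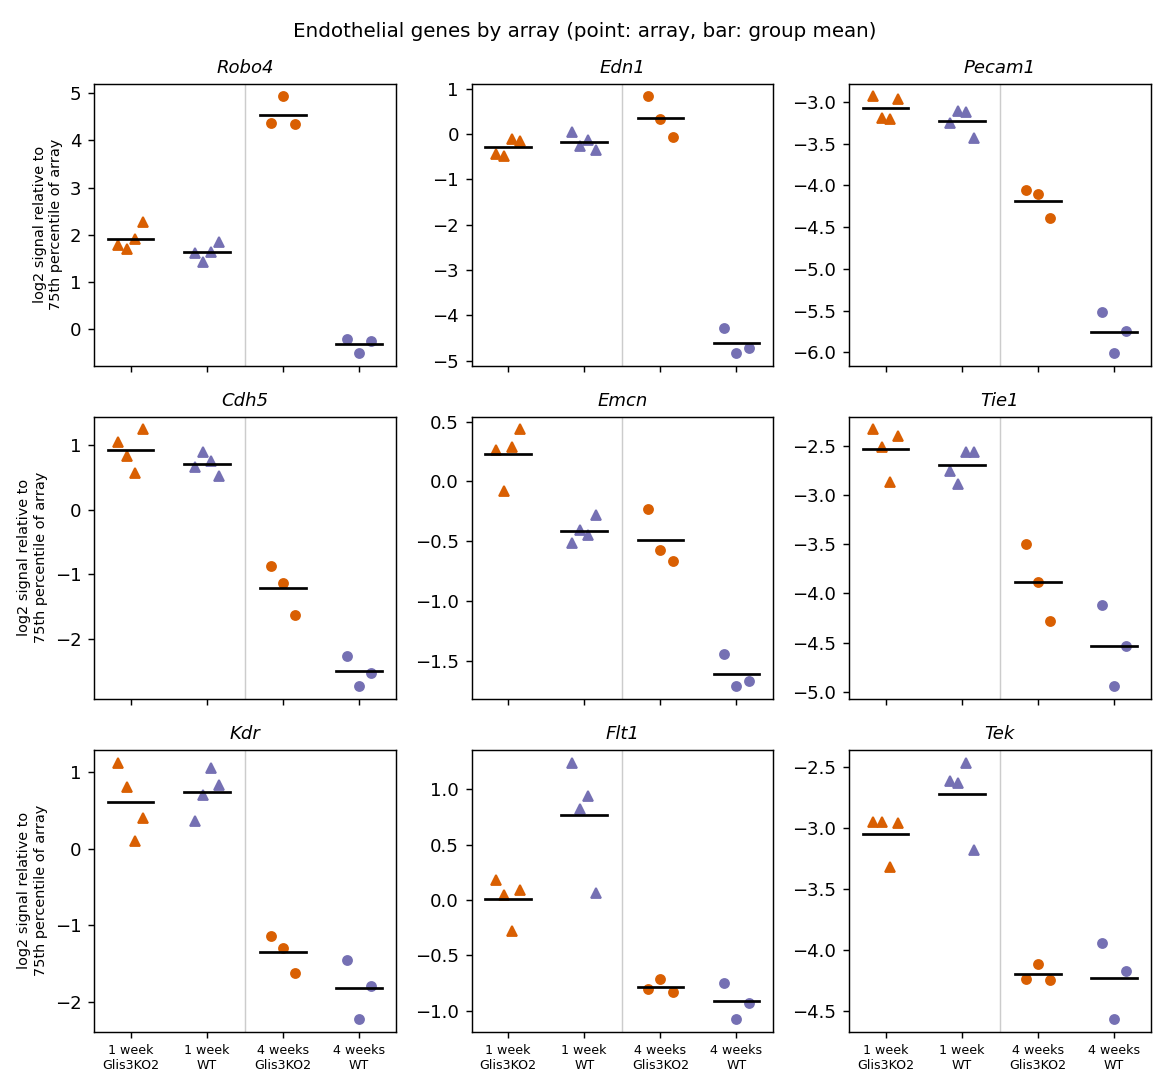
Log2 signal of the lead probe of each of the 9 genes on every array, relative to the array's 75th percentile (triangles 1 week, circles 4 weeks, orange Glis3KO2, violet WT, bar the group mean). The scale differs between panels; Robo4 and Edn1 show a gap between 4-week Glis3KO2 (4.34 to 4.93 for Robo4) and 4-week WT (-0.50 to -0.20) that Flt1 and Tek do not.

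**Figure D2:**
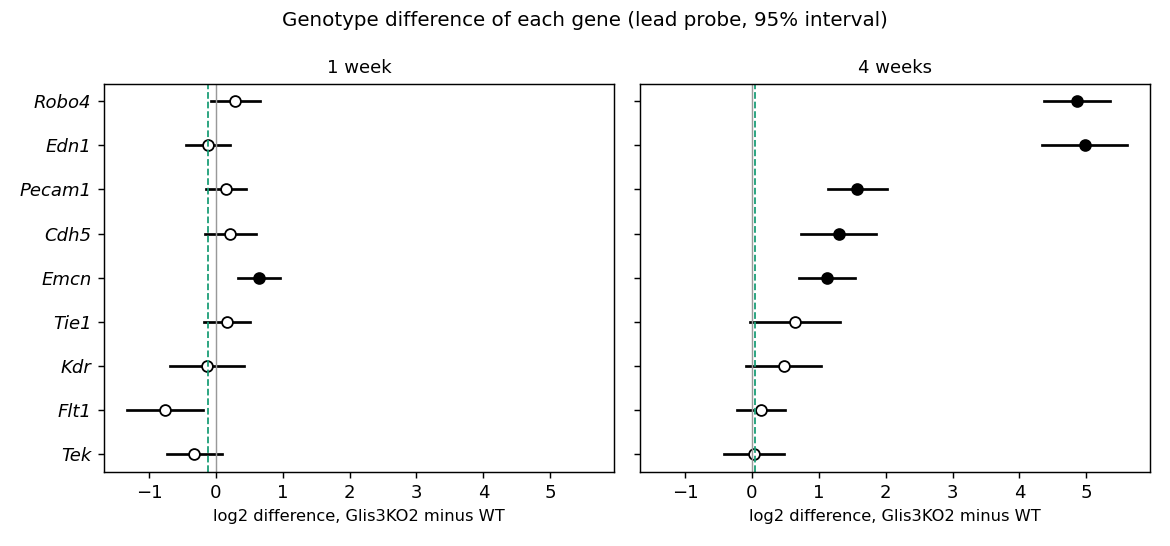
Log2 difference, Glis3KO2 minus WT, of each lead probe with its 95% interval at 1 week and 4 weeks (filled: called, open: not called; dashed line: median of all probes tested, -0.12 and 0.05). Emcn is the one filled point at 1 week, and 5 points are filled at 4 weeks.

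The genotype effect differed between the ages for 5 of the 9 genes in 1 fit of all 14 arrays, all 5 higher at 4 weeks; over the 35144 probes of that fit 31.1% were called higher and 20.8% lower. The difference of the 2 effects (4 weeks minus 1 week) was 5.09 for Edn1 (SE 0.30, limma adjusted p = 1.61e-06), 4.57 for Robo4 (SE 0.26, adjusted p = 1.43e-06), 1.42 for Pecam1, 1.08 for Cdh5 and 0.89 for Flt1. Flt1 enters this count through its lower 1-week value as well as its 4-week value. Emcn (0.47, adjusted p = 0.0859), Tie1 (0.48), Kdr (0.61) and Tek (0.35) were not called on their lead probes. The 2 Tek probes disagreed: the second, above background on all 14 arrays, was called (1.01, SE 0.29, limma adjusted p = 0.0115). Median scaling left 3 called, with Cdh5 at 0.74 (adjusted p = 0.0612) and Flt1 at 0.55 (adjusted p = 0.134), and moved the share of higher calls over all probes from 60% to 44.5%. Leaving out 1 array also ended the Flt1 call for WT replicates 1, 2 and 3 and Glis3KO2 replicate 3 of 1 week, and for WT replicates 2 and 3 and Glis3KO2 replicates 1 and 2 of 4 weeks, with values from 0.73 to 0.90.

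With age the lead probes of all 9 genes fell in WT testes, against 51.7% of probes called lower. Each age has its own slides, so age and slide set cannot be told apart. The largest decreases were those of Edn1 (-4.43, 21.6-fold), Cdh5 (-3.22), Kdr (-2.55) and Pecam1 (-2.53), and the smallest that of Emcn (-1.19); the median was -1.94, beside -0.59 over all probes. All 9 calls held in each of 18 alternatives, and the largest limma adjusted p among them was 0.0044, for Flt1.

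In Glis3KO2 testes the lead probes of 7 of the 9 genes fell with age, by 0.72 (Emcn) to 2.14 (Cdh5) on the log2 scale, while 28.7% of probes were called lower and 21.8% higher. For Tek this rests on the lead probe (-1.15); the second probe gave 0.20 (adjusted p = 0.402), with overlapping arrays. Robo4 was higher at 4 weeks than at 1 week (2.62, SE 0.23, limma adjusted p = 3.27e-05), and Edn1 was not called (0.66, adjusted p = 0.0528), although its 3 arrays at 4 weeks lay above the 4 at 1 week, as for 23.8% of probes. The median over the 9 was -1.11, beside -0.16 over all probes. The Emcn call was lost without 1-week replicate 1 (adjusted p = 0.0525), 4-week replicate 2 (0.067) or 4-week replicate 3 (0.0512), and the Edn1 call was gained without 4-week replicate 3 (0.88, adjusted p = 0.0183).

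**Figure D3:**
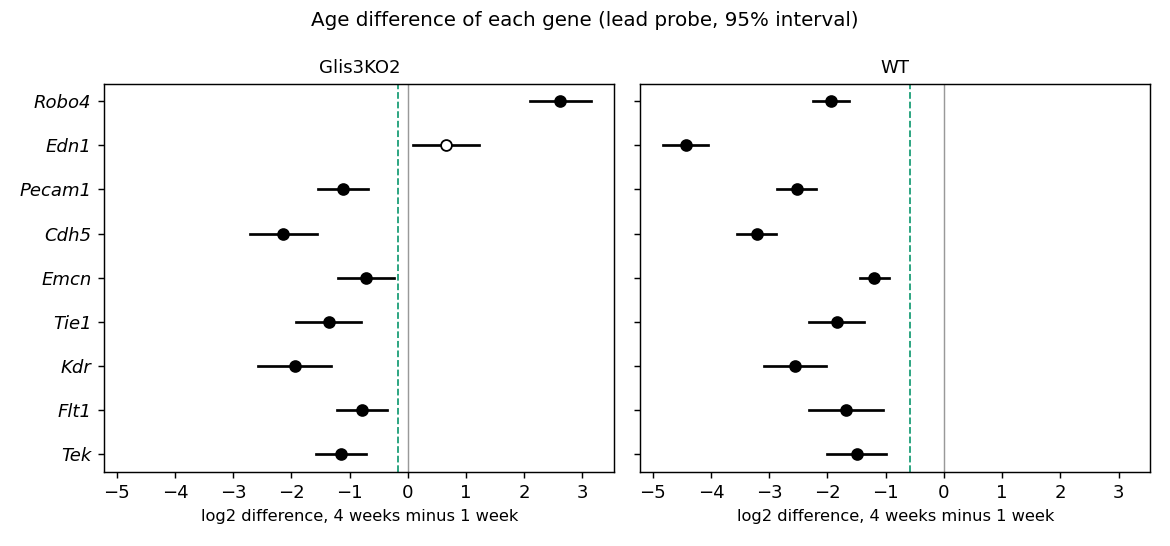
Log2 difference, 4 weeks minus 1 week, of each lead probe with its 95% interval in Glis3KO2 and in WT (filled: called, open: not called; dashed line: median of all probes tested, -0.16 and -0.59). All 9 points lie below 0 in WT, while Robo4 (2.62) and Edn1 (0.66) lie above 0 in Glis3KO2.

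The order of the 4 groups therefore differed by gene. For Robo4 it ran from 4-week Glis3KO2 (mean 4.54) through 1-week Glis3KO2 (1.92) and 1-week WT (1.63), which did not differ beyond their spread, to 4-week WT (-0.32). For Edn1 the first 3 groups lay close together and 4-week WT (-4.61) stood apart. Emcn was highest in 1-week Glis3KO2 (0.23), with 1-week WT (-0.41) and 4-week Glis3KO2 (-0.49) close together and 4-week WT (-1.61) lowest. Pecam1 and Cdh5 were highest at 1 week in both genotypes, lower in 4-week Glis3KO2 and lowest in 4-week WT, and Kdr, Tie1, Flt1 and Tek had 1-week groups above both 4-week groups on their lead probes, where the 4-week genotype difference was not called. On the second Tek probe the order was another, with 4-week Glis3KO2 at -4.25, 1-week Glis3KO2 at -4.45, 1-week WT at -3.76 and 4-week WT at -4.57. The mean of the 7 genes other than Robo4 and Edn1, each centred on its own mean, was 0.72 ± 0.19 in 1-week Glis3KO2 and 0.73 ± 0.13 in 1-week WT (SD, n = 4 each), and -0.59 ± 0.21 in 4-week Glis3KO2 and -1.35 ± 0.27 in 4-week WT (SD, n = 3 each).

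Deviations of the members from their group means were compared across arrays. After removing group means, the median Pearson correlation over the 36 pairs of genes was 0.81 across the 6 arrays at 4 weeks and 0.24 across the 8 at 1 week; the arrays share a scaling factor per array, so this is a description. The genes outside all lists whose signal over the 14 arrays was most like the mean of the members were Ppp2r1a (r = 0.996), Tshz2, Foxp4, Apbb2 and Traf6 (r = 0.995 each), among 13952 probes above background on all arrays, with no p since the arrays fall into separate groups. That mean takes in all 9 genes without scaling, so Robo4 and Edn1, with 4-week differences of 4.86 and 4.97, weigh most in it. Likeness to the mean without Robo4 and Edn1 was not tested.

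Other genes of the endothelium were read beside the members. From here on, rose and fell mean called higher and lower in Glis3KO2 than in WT of the same age. Of 26 further vascular endothelial genes 25 were tested, 15 rose and 0 fell in Glis3KO2 at 4 weeks, with a median of 0.62 (0.54 with median scaling). Over all probes 35.6% were called higher and 33.8% lower. When each array was left out the genes called were 11 to 18 higher and 0 lower, with calls of Cd34, Egfl7, Ptprb, Rasip1 and Aplnr among those lost. The adhesion G protein-coupled receptors Adgrl4 (2.17, above background on 1 of the 3 WT arrays) and Adgrf5 (1.85), the sphingosine receptor S1pr1 (1.20) and the adrenomedullin receptor Calcrl (1.06) led by p-value, while Nos3, the endothelial nitric oxide synthase (-0.26), and von Willebrand factor Vwf (-0.16) were not called. At 1 week 3 of 25 rose, Ramp2 (0.74), Cldn5 (0.73) and Cd34 (0.61), and Mcam fell (-1.0), with a median of 0.28. Of all probes 3.24% were called higher and 6.75% lower at that age. The 3 higher calls were all lost with slide as a block, where 0 were higher and 1 was lower. Each of the 4 calls was also lost without any one of WT replicates 1, 2 and 3, those of Ramp2 and Cldn5 also without Glis3KO2 replicate 1, 3 or 4, and that of Cd34 when any 1 Glis3KO2 replicate was left out.

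Ligands, receptors and partners of the VEGF, angiopoietin, endothelin and Slit systems were 15 higher and 2 lower of 25 at 4 weeks, with a median of 1.01. The shares over all probes were 35.6% called higher and 33.8% lower. When each array was left out they were 14 to 16 higher and 0 to 3 lower. Ephb4, an ephrin receptor of veins, rose by 2.72, the receptor Notch1 by 1.96, the secreted Angptl4 by 1.84 and the semaphorin and VEGF co-receptor Nrp2 by 1.32. For endothelin-1 itself, the converting enzyme Ece1 (2.06) and the receptor Ednra (2.40) rose, and the receptor Ednrb (0.59, limma adjusted p = 0.167) was not called. Angpt1, the activating ligand of Tek, was lower (-1.31, limma adjusted p = 0.0387), above background on 2 of the 3 Glis3KO2 arrays, and the call was lost without any 1 of the 3 WT replicates (adjusted p from 0.0666 to 0.097). Angpt2 was higher (1.01), a call lost without WT replicate 2 (0.90, adjusted p = 0.0525). At 1 week Angptl4 (0.75) and Angpt2 (0.79) were called higher and 0 of 25 lower, beside 3.24% of all probes higher and 6.75% lower. Both calls were lost with slide as a block (adjusted p = 0.0864 for Angptl4 and 0.128 for Angpt2) and without WT replicate 1 or 3 or Glis3KO2 replicate 1, that of Angptl4 also without WT replicate 2 and that of Angpt2 without Glis3KO2 replicate 4.

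Of 20 transcription factors active in endothelium 13 rose and 5 fell at 4 weeks, with a median of 0.65. Over all probes 35.6% were called higher and 33.8% lower. When each array was left out the factors called were 9 to 13 higher and 5 lower. The ETS factors Fli1 (1.28), Erg (1.57), Ets1 (1.55) and Ets2 (2.07) all rose, as did Epas1 (1.89) and Mef2c (2.24), while Gata2 (-2.10), Sox7 (-1.22), Sox17 (-0.97), Klf4 (-0.92) and Hey1 (-0.81) fell. At 1 week Foxo1 was called lower (-0.75) and Sox17 higher (0.47), beside 6.75% of all probes called lower and 3.24% higher. Both calls were lost with slide as a block (adjusted p = 0.109 for Foxo1 and 0.142 for Sox17) and without any one of WT replicates 1, 2 and 3 or Glis3KO2 replicates 1 and 4, that of Sox17 also without Glis3KO2 replicate 3. Lymphatic endothelial markers were higher in 4 of 4 tested at 4 weeks, with Lyve1 at 3.43, Pdpn at 2.97, Flt4 at 1.21 and Prox1 at 0.83; in normexp 3 of 4 were called, and the Prox1 call was lost when any 1 array other than WT replicate 2 was left out (adjusted p from 0.0503 to 0.101). Several of these genes, Lyve1, Pdpn, Nr2f2 and Mef2c among them, are used by cells other than endothelium.

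Markers of other testis cell types moved at 4 weeks as well, when 35.6% of all probes were called higher and 33.8% lower. Of 10 Sertoli cell genes 9 rose (median 2.03; Fshr 2.48, Dhh 2.33), of 8 pericyte and vascular smooth muscle genes 7 rose (median 1.18; Pdgfrb 1.84) and of 5 peritubular genes 4 rose (median 1.23). Des (1.14) is counted, by the same probe, in both the pericyte and the peritubular list. All 8 meiotic and haploid germ cell genes fell (median -2.56, Tnp2 -3.90, Tnp1 -3.41). Their mean log2 signal ran from 2.93 to 3.86 on the Glis3KO2 arrays and from 5.76 to 6.12 on the WT arrays. The Ldhc call (-0.65) was lost in 5 of the 6 fits that left out 1 array. Of 6 spermatogonial and germ cell genes 1 rose and 3 fell, with means of -0.87 to -0.51 in Glis3KO2 and 0.25 to 0.35 in WT. The 1 that rose was Lin28a (0.48, limma adjusted p = 0.0474). Its call was lost in 5 of the 6 fits that left out 1 array and with slide as a block (limma adjusted p = 0.0514). Red cell genes were 0 called of 3, and platelet and leukocyte genes were 3 higher and 2 lower of 10. The mean of the 9 endothelial genes ran from -1.49 to -1.07 on the Glis3KO2 arrays and from -3.17 to -2.66 on the WT arrays. That mean takes in Robo4 and Edn1, with log2 differences of 4.86 and 4.97. The 7 other genes, each centred on its own mean, averaged -0.59 in 4-week Glis3KO2 and -1.35 in 4-week WT. The part that the germ cell and somatic cell changes have in the endothelial values was not tested.

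At 1 week 4 of 10 Sertoli cell genes and 3 of 7 Leydig cell genes rose (medians 0.59 and 0.45), and 4 of 6 spermatogonial genes fell. Of all probes tested at that age 3.24% were called higher and 6.75% lower. At 4 weeks Leydig genes were split, with Nr5a1 (1.80) and Star (1.35, a call lost without WT replicate 2 or 3 or Glis3KO2 replicate 2) higher and Cyp11a1 (-3.68) and Cyp17a1 (-2.85) lower. No 1-week Sertoli or Leydig call was kept with slide as a block.

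**Figure D4:**
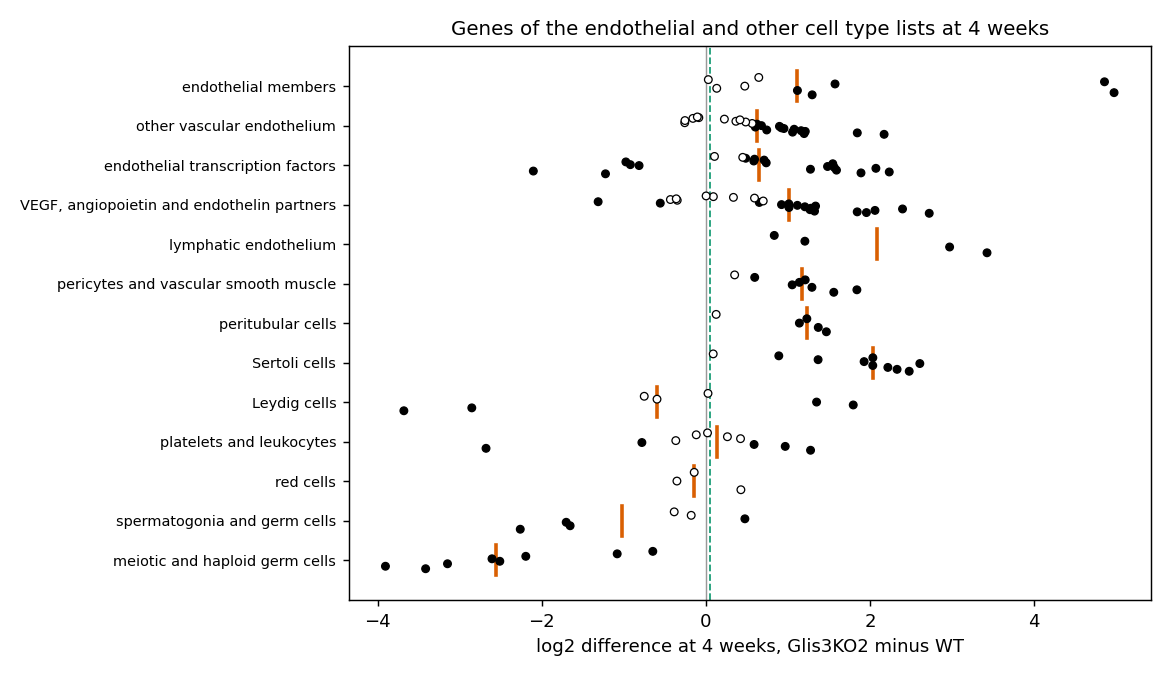
Log2 difference at 4 weeks, Glis3KO2 minus WT, for each gene (point; filled: called) of the endothelial members and the other lists, with the list median in orange and the median of all probes (0.05) dashed. The endothelial lists have medians of 0.62 to 2.09, Sertoli cells 2.03, and meiotic and haploid germ cells -2.56.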

How the data were processed

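Total RNA of 14 mouse testis samples was measured on Agilent single-colour arrays. Per the file headers and the submitters' processing notes, the deposited spot intensity is the processed signal of Agilent Feature Extraction 9.5, background-corrected by that program, with probe positions on mm7. The deposited series table holds the same values, and 0 spots differed from the scanner files. Intensities were turned to log2 and each array's 75th percentile over non-control probes was subtracted; non-uniform spots were left out and spots of 1 probe averaged. A probe was tested if well above background on 3 or more arrays of a compared group. Differences were fitted with limma 3.58.1 in R 4.3.3 and adjusted by Benjamini-Hochberg over all probes tested; the threshold was 0.05. All comparisons between ages share arrays with those between genotypes. The procedure was tested on simulated data for the genotype comparison at each age. The simulation had independent noise and changes in few probes. It therefore does not cover the array differences at 1 week or the wide changes at 4 weeks.

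The members and all gene lists were chosen with earlier results of these data known. Named were all members by the probe with the highest mean, up to 4 genes of each other list by p at each age, further list genes chosen after their values were seen, and the 5 genes most like the member mean. Alternatives were median scaling, quantile normalization, normexp with an offset of 50, 2 filters, 1 probe per gene, 1 fit of all arrays, an intensity trend, replicate and slide blocks, single slides and leaving out each array. Counting Esam as a member was added after seeing the data. The number of arrays limits the precision.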

Additional observations from a re-analysis of the deposited data

Results flagged for a closer look

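Tek in 1-week Glis3KO2 replicate 3 had a signal of -3.32, while the other 3 arrays of the group lay between -2.96 and -2.95. The gap is larger than Dixon's test allows for 4 values; 20 groups, those of the 9 members and Esam at 1 week, were tested in this way and 1 stood out, where chance gives about 1 in 20.

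The genotype effect at 4 weeks minus that at 1 week passed the interaction test for Edn1 (5.09), Robo4 (4.57), Pecam1 (1.42), Cdh5 (1.08), Flt1 (0.89) and Esam (0.77). For Flt1 the 4-week effect was 0.13 and the 1-week effect -0.76, neither called on its own.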

How the results depend on the processing

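At 1 week the median of the 9 genes was 0.41 with median scaling. The count of members higher, 1, was 0 with no filter, with the replicate block, with slide as a block, on slide 1 alone and on slide 2 alone, and 0 to 1 when each array was left out. The count lower, 0, was 1 (Flt1) with an intensity trend and in 1 fit of all arrays, and 0 to 1 when each array was left out. Edn1 and Kdr changed sign with median scaling (0.14 and 0.13), and Kdr on slide 2 alone (0.034) and when arrays were left out (-0.30 to 0.036). At 4 weeks the 5 calls held in every alternative with a test, and Tek changed sign with median scaling (-0.051), quantile normalization (-0.059), slide 4 alone (-0.11) and arrays left out (-0.14 to 0.17). With age in WT the median was -1.66 under normexp. In Glis3KO2 it was -1.31 with median scaling, -1.33 with quantile normalization and -0.75 with normexp, and the members higher were 2, with Edn1 added, under quantile normalization, normexp, a filter on every array, the trend and 1 fit, and 1 to 2 with arrays left out. For the difference of the genotype effects, median scaling gave 3 higher and a median of 0.55, normexp a median of 0.70, and leaving out arrays 4 to 6 higher and 0.73 to 1.12. Counting Esam as a member, added after seeing the data, gave 6 higher at 4 weeks. Over all probes the 1-week calls, 3367, were 587 with the replicate block, 680 with slide as a block, 1498 with no filter, 5220 with median scaling, 5517 with the trend, 5816 in 1 fit, 0 on either slide alone and 500 to 5256 with arrays left out. Same-numbered samples of the genotypes did not deviate together (correlations of -0.16 to 0.14 at 1 week and -0.28 to 0.13 at 4 weeks), so the numbers were not used as pairs; with the replicate block Emcn had an adjusted p of 0.0801 at 1 week and Tie1 0.0462 at 4 weeks, and with it Emcn with age in Glis3KO2 was -0.65 (adjusted p = 0.0541). The cause of these shifts was not tested.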

Other observations

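Genes next to Robo4 and Edn1 in RefSeq's order on the chromosome were read after the values of those 2 genes had been seen. Beside Robo4, its family member Robo3 was higher in 4-week Glis3KO2 testes (log2 difference 2.52, SE 0.34, limma adjusted p = 0.001), and so were the transporter Slc37a2 (1.80), Esam (1.09) and Msantd2 (0.47), while the adhesion molecule Hepacam, which lies directly on the other side, was lower (-1.47). Beside Edn1, Nedd9 (3.68) and Hivep1 (1.57) were higher, and Adtrp (-2.70), Phactr1 (-1.57) and Tbc1d7 (-0.46) were lower.

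Ranked by log2 difference at 4 weeks among 31382 probes, Edn1 was number 15 from the top and Robo4 number 20.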
